A study of Homo sapiens with 4 samples.

Results

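The genes described here encode subunits of the 5 complexes of oxidative phosphorylation. They were taken by symbol from the deposited table, as the NDUFA, NDUFB, NDUFC, NDUFS and NDUFV genes of complex I, the SDH genes of complex II, the UQCR genes and CYC1 of complex III, the COX4 to COX8 genes of complex IV, and the ATP5F, ATP5M and ATP5P genes of complex V. This gave 85 of the 17791 genes listed, 38 for complex I, 4 for complex II, 11 for complex III, 13 for complex IV and 19 for complex V. The study sequenced RNA, with 1 library per group, from 3 engineered prostate cancer tissues, called EPCaTs, and from cells in a dish. All hold 2 human lines, PC-3, which stems from a metastasis of prostate cancer, and BJ-5ta, fibroblasts of foreskin immortalised by telomerase. The PF EPCaT held both lines at 5 PC-3 to 1 BJ-5ta and 20 x 1000000 cells per mL in a gel of poly(ethylene glycol) and fibrinogen (PF), and was harvested on day 15. The same tissue with 2% of added PEGDA, a crosslinker used to tune the mechanics of the gel, is the PF+2%PEGDA EPCaT (here the 2% EPCaT), and that with 3% is the PF+3%PEGDA EPCaT (here the 3% EPCaT). RNA of each EPCaT library was pooled from more than 2 tissues. The 2D coculture gave RNA of 1 x 1000000 cells of both lines grown flat, and its day and its ratio of lines are not in the labels.

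Complexes I and II pass electrons from NADH and succinate to ubiquinone, complex III hands them to cytochrome c, and complex IV gives them to oxygen. Complexes I, III and IV pump protons across the inner mitochondrial membrane, and complex V, the ATP synthase, uses that gradient to make ATP. Most subunits are encoded in the nucleus and a small core by mitochondrial DNA, except in complex II, which is wholly nuclear. Of the 13 mitochondrially encoded subunits, 0 were found in the deposited table by the symbols searched, so that they were not analysed here. COX4I2, COX6A2 and COX8C, whose symbols the same choice covers, were not among the 85 genes found either.

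Total counts were 13760301 to 15687894 per library. Levels are CPM, counts per 1000000 of the scaled library size, and a difference is a log2 ratio of 2 libraries with a 95% interval. Since no group has replicates, the intervals cover counting error only and no p-value can be given. A gene is called higher or lower when the ratio is at least 2-fold and the interval excludes equality. Of the 85 genes, 84 reached 1 CPM in some library. COX7A1, the muscle isoform of a complex IV subunit, did not, with 0, 11 and 9 counts in the PF, 2% and 3% EPCaTs and 11 in 2D. The 20 fibroblast markers summed to 3052, 3367 and 2804 CPM in the PF, 2% and 3% EPCaTs and to 9731 CPM in 2D, with POSTN at 0 in the 2% and 3% EPCaTs. The 15 epithelial markers summed to 6029, 6827 and 6414 CPM in the EPCaTs and to 4359 CPM in 2D, with none at 0. Of the fibroblast markers, 15, 14 and 14 were called lower than 2D in the PF, 2% and 3% EPCaTs, and 1 higher in each. Of the epithelial markers, 5, 6 and 6 were called higher and 0 lower, with lowest log2 ratios of -0.36, -0.41 and -0.62. Of all genes tested, 12.3%, 9.65% and 10.7% were called lower and 16.2%, 12.3% and 11.8% higher. CTNNA1, which PC-3 lacks by deletion, measured 5.39, 6.18 and 8.26 CPM in the EPCaTs against 33.3 CPM in 2D. The part of the mix of cell lines in the values below was not tested, and in bulk RNA fewer cells of a type and less RNA per cell cannot be told apart.

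Promoters of these genes are known for binding sites of NRF1 (nuclear respiratory factor 1), of ETS factors such as GABP, of YY1 and of estrogen-related receptors. Windows from 250 bases before to 50 after the start in RefSeq (GRCh38.p14) were found for 64 of the 85 genes, with 76 starts, and searched on both strands. The NRF1 letters, GCGCA then any base then GCGC, were in 19.7% of the 76 windows and in 5.78% of all 35116. The ETS letters CCGGAAGT were in 14.5% and 4.14%, the YY1 letters AAGATGGCG in 13.2% and 1.75%, and the receptor letters TCAAGGTCA in 1.32% and 0.353%. No match of one motif overlapped a match of another in the members' windows. A match describes letters only. The 15 genes with an NRF1 match had a median log2 ratio of -0.42 in the PF EPCaT against 2D and 0.43 in the 3% EPCaT against the PF EPCaT. The 49 genes without one had medians of -0.53 and 0.45. The stretches below, all with NRF1 letters, show this for genes that went opposite ways, SDHA and NDUFB4 with more mRNA in the PF EPCaT than in 2D and NDUFA3 and ATP5ME with less. They were chosen after their values were seen. Capitals mark the NRF1 letters on either strand, and each stretch ends before the gene start in both RefSeq and GENCODE 29. On GRCh38.p14 they are chr5:218070-218240 (+ strand) for SDHA, chr3:120596086-120596308 (+ strand) for NDUFB4, chr19:54102605-54102727 (+ strand) for NDUFA3 and chr4:674339-674526 (- strand) for ATP5ME, printed 5′ to 3′ on the strand of the gene.
SDHA: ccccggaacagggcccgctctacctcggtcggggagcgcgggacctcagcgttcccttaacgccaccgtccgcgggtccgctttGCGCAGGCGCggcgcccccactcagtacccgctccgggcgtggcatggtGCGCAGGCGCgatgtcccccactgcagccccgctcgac
NDUFB4: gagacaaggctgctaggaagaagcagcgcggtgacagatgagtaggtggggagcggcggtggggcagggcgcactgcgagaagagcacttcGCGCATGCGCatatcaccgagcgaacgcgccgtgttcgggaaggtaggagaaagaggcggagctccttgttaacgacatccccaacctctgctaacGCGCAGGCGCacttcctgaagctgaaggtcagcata
NDUFA3: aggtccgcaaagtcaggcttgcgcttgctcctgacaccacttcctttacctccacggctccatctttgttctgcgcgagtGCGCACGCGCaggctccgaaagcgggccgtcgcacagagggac
ATP5ME: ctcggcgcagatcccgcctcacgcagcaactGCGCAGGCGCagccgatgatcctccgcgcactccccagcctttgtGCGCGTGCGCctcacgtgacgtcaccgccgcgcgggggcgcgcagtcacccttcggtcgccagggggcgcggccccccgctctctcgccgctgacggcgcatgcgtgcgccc

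Subunit mRNA was lowest in the PF EPCaT. Over all 85 genes the sum was 6024, 8234 and 7864 CPM in the PF, 2% and 3% EPCaTs, against 8315 CPM in 2D. The PF EPCaT had the lowest CPM of the 4 libraries for 65 of the 84 genes, which is 77.4%, against 28.6% of all 14856 genes tested. The shares of all genes in this paragraph are not matched for transcript length, and the members are shorter, with a median of 798 against 2424 bases. It had the highest for 5 of the 84, where 29.5% of all genes did. The 2% EPCaT was highest for 26 genes (30.95%, against 12.6% of all genes), the 3% EPCaT for 19 (22.6%, against 20.7%) and 2D for 34 (40.5%, against 37.1%), and 2D was lowest for 11 (13.1%, against 36.7%). The 34 include ATP5MGL and COX6B2, which reached 1 CPM in 2D alone and so had to be highest there. In 24 of the 84 genes the PF EPCaT lay below 2D and both PEGDA gels above it, a pattern held by 6.45% of all genes tested.

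In the PF EPCaT against 2D, 71 of the 84 genes had a log2 ratio below 0 and 13 above, where 49.7% and 50.3% of all genes did, with a median of -0.49. The median of all genes tested was 0.01. With the trend of all genes in length and GC content removed, 48 of the 84 genes lay below 0 and 36 above. By the 2-fold rule 13 were lower and 0 higher, against 12.3% and 16.2% of all genes tested, so the share called lower was near the background and the shift was mostly of less than 2-fold. At 1.5-fold, 37 were lower and 1 higher, against 22.6% and 25.5% of all genes. The 71, the 13 and the 37 each include ATP5MGL and COX6B2. These reached 1 CPM in 2D alone, so that they could pass the filter only by being higher there. In the 2% EPCaT against 2D the median was 0.03, with 3 genes lower and 0 higher against 9.65% and 12.3% of all genes, and at 1.5-fold 7 lower and 6 higher against 18.7% and 20.3%. In the 3% EPCaT against 2D it was -0.02, with 4 lower and 1 higher against 10.7% and 11.8%, and at 1.5-fold 9 lower and 2 higher against 20.1% each. The genes lower in the 2% and 3% EPCaTs, at 2-fold and at 1.5-fold, again include ATP5MGL and COX6B2. These 3 comparisons share the 2D library.

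Between the gels, the 3% EPCaT exceeded the PF EPCaT in 72 of the 84 genes, against 50.2% of all genes, with a median of 0.45. By the 2-fold rule 5 were higher and 0 lower, against 3.62% and 7.49% of all genes tested. At 1.5-fold, 25 were higher and 1 lower, against 10.7% and 15.3%. The 2% EPCaT exceeded the PF EPCaT in 76 genes, against 50.4% of all genes, with a median of 0.52. Here 6 were called higher and 0 lower, against 2.98% and 5.47%, and at 1.5-fold 33 and 0, against 8.53% and 11.4%. With the trend in length and GC content removed, 56 of the 84 genes lay above 0 in the 3% EPCaT and 59 in the 2% EPCaT. The medians were then 0.09 and 0.14. Both comparisons share the PF library. In the 3% EPCaT against the 2% EPCaT the median was -0.07, and 0 of the 84 genes were called in either direction, against 1.85% higher and 2.42% lower of all genes. At 1.5-fold it was 1 in each direction, against 3.51% and 4.96%.

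**Figure D1:**
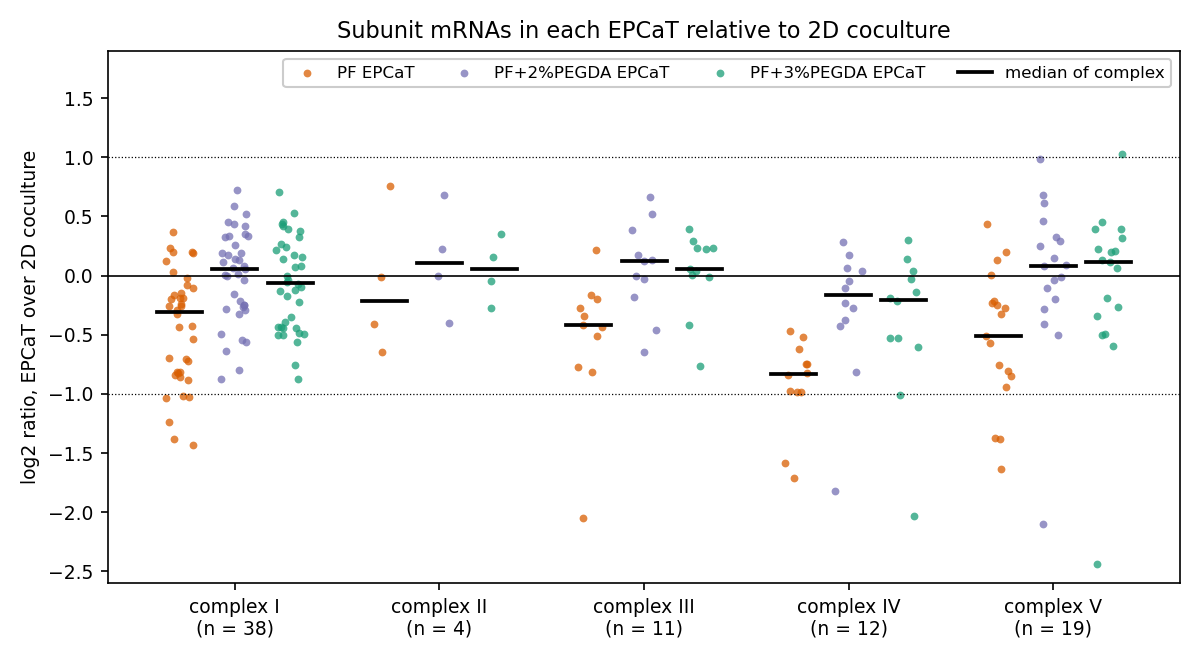
Log2 ratio of each subunit gene in the 3 EPCaTs over the 2D coculture, by complex. Each point is 1 gene of 1 library pair, black bars are medians over the genes that passed the filter, and dotted lines mark 2-fold. ATP5MGL, with 0 counts in the PF EPCaT, is counted in the medians but not drawn. PF EPCaT medians run from -0.21 for complex II to -0.83 for complex IV.

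The depth of this shift differed among complexes. So did the median transcript length of the genes tested, at 820.5, 1072, 1044, 625 and 814 bases for complexes I to V. The sums below are not adjusted for length. Complex IV summed to 1023, 1602 and 1549 CPM in the PF, 2% and 3% EPCaTs, against 1756 CPM in 2D, which put the PF EPCaT 1.72-fold below 2D and the 3% EPCaT 1.51-fold above the PF EPCaT. Complex III summed to 956, 1295 and 1183 CPM in the EPCaTs, against 1301 CPM in 2D. Complex I summed to 2081, 2731 and 2621 CPM in the EPCaTs, against 2812 CPM in 2D. All 3 proton-pumping complexes were thus lowest in the PF EPCaT, and 2D had the highest sum, though in complex III the 2% EPCaT lay within counting error of it and with total counts as the only scaling the 2% EPCaT exceeded 2D in complex I (2767 against 2626 CPM) and complex III (1312 against 1215 CPM). Complex V summed to 1567, 2171 and 2105 CPM in the EPCaTs, against 2062 CPM in 2D, so that only its PF EPCaT value lay below 2D. Complex II, which also serves the citrate cycle, summed to 397, 436 and 405 CPM in the EPCaTs, against 384 CPM in 2D. Its log2 ratio of sums in the PF EPCaT over 2D was 0.05 (interval -0.003 to 0.10), within counting error of 0, although the median over its 4 genes was -0.21.

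**Figure D2:**
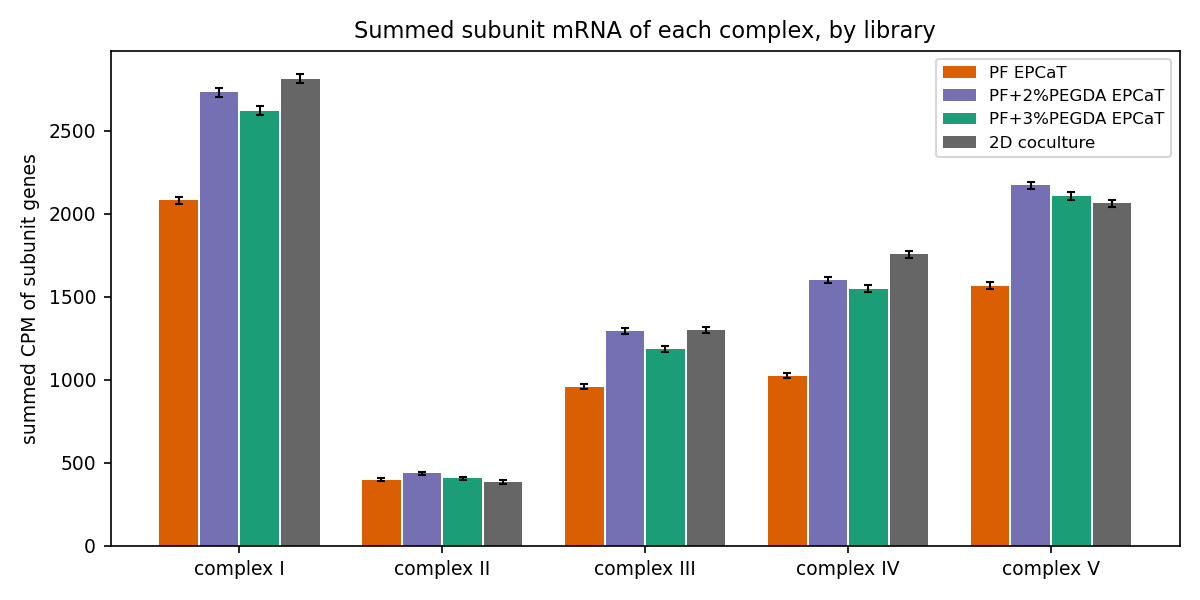
Summed CPM of the subunit genes of each complex in the 4 libraries. Bars start at 0 and error bars are exact Poisson 95% intervals, which cover counting error only. The PF EPCaT bar is the lowest of the 4 in complexes I, III, IV and V, and complex II lies between 384 and 436 CPM in all 4.

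Levels between genes were compared per 1000 bases of transcript, leaving out gene copies and tissue isoforms. On this scale the 10 general complex IV genes had the highest median in every library, 116, 207 and 226 CPM per 1000 bases in the PF, 2% and 3% EPCaTs and 206 in 2D. Complex I had the lowest median, 52.0, 60.8 and 58.6 CPM per 1000 bases in the EPCaTs and 61.0 in 2D. NDUFS8 stood highest in complex I, CYC1 in complex III and ATP5F1B in complex V in all 4 libraries.

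Complex I has 7 nuclear core subunits, which carry the NADH site and the iron-sulfur clusters, and 31 accessory genes here. The core genes had a median log2 ratio of 0.12 in the PF EPCaT against 2D, and the accessory genes -0.43. The core genes are longer, with a median of 1131 bases against 778, and with the trend of all genes in length and GC content removed the medians were 0.31 for core and 0.06 for accessory genes. NDUFV1, the NADH-binding subunit, measured 114, 104 and 73.9 CPM in the PF, 2% and 3% EPCaTs, against 99.8 CPM in 2D coculture. NDUFS1, the largest iron-sulfur subunit, measured 120.4, 117 and 105 CPM in the PF, 2% and 3% EPCaTs, against 93.2 CPM in 2D coculture. Both were higher in the PF EPCaT than in any other library but within 2-fold of each. NDUFV1 was the member of the complex with the lowest log2 ratio in the 3% EPCaT against the PF EPCaT, -0.63 (interval -0.74 to -0.52), and the single gene of the 84 called lower there at 1.5-fold. NDUFV2, the partner of NDUFV1 in the NADH module, measured 92.1, 139 and 115 CPM in the PF, 2% and 3% EPCaTs, against 84.6 CPM in 2D coculture, and 82.0% of its 50-base stretches also occur in another annotated gene. NDUFS8, a core iron-sulfur subunit, went the other way, at 92.2, 127 and 132 CPM in the EPCaTs against 187 CPM in 2D, and was called lower than 2D in the PF EPCaT with a log2 ratio of -1.02. That call was lost with total counts as the only scaling (-0.83) and with the trend removed (-0.39).

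Accessory subunits of complex I surround the core and serve its assembly and stability. Of the 31, 28 lay below 2D in the PF EPCaT and 5 were called lower, where 12.3% of all genes tested were. With the trend removed, 16 lay above 2D and 15 below. NDUFB9, of the membrane arm, measured 103, 159.7 and 164 CPM in the PF, 2% and 3% EPCaTs, against 278 CPM in 2D coculture, which was 2.69-fold lower in the PF EPCaT. NDUFA11, also of the membrane arm, measured 84.6, 159 and 142 CPM in the PF, 2% and 3% EPCaTs, against 199.9 CPM in 2D coculture, and 63.9% of its 50-base stretches also occur in another gene. In both, 2D was highest, the PF EPCaT lowest and the PEGDA gels between. NDUFA6, at 26.6, 37.3 and 38.5 CPM in the EPCaTs against 54.4 CPM in 2D, and NDUFB1, at 7.85, 13.2 and 15.1 CPM in the EPCaTs against 20.5 CPM in 2D, kept this order. NDUFA3 (chr19:54102728-54109257, + strand, GENCODE 29 on GRCh38, as for the positions below) measured 23.8, 50.4 and 46.2 CPM in the PF, 2% and 3% EPCaTs, against 48.6 CPM in 2D coculture, so that both PEGDA gels were near 2D and the PF EPCaT stood alone. In the 2% EPCaT it was 2.12-fold higher than in the PF EPCaT. Both calls of NDUFA3 were lost with the trend removed, at -0.41 in the PF EPCaT against 2D and 0.59 in the 2% EPCaT against the PF EPCaT, and the one against 2D also with total counts (-0.84).

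NDUFA4 (chr7:10931951-10940256, - strand) bears a complex I symbol, though its protein is now placed with complex IV. It measured 47.2, 91.6 and 112 CPM in the PF, 2% and 3% EPCaTs, against 83.2 CPM in 2D coculture. The value was highest in the 3% EPCaT and lowest in the PF EPCaT, 2.38-fold apart, the largest log2 ratio between these gels among members of complex I, 1.25 (interval 1.13 to 1.38). NDUFA4L2, its relative that is induced by low oxygen and is not among the 85, had low levels, at 1.26, 2.19 and 2.41 CPM in the EPCaTs against 5.75 CPM in 2D, and was called lower in all 3 EPCaTs. PDK1, BNIP3 and BNIP3L, also of the oxygen response, did not share that direction. Of 7 genes listed for this response, with NDUFA4L2 among them, 6 were in the table. PDK1, the kinase that keeps pyruvate out of the citrate cycle, measured 88.7, 75.6 and 74.7 CPM in the EPCaTs against 13.6 CPM in 2D. BNIP3, a receptor for removal of mitochondria, measured 177, 253 and 309.8 CPM in the EPCaTs against 45.9 CPM in 2D, and its paralogue BNIP3L 209, 292 and 347 CPM in the EPCaTs against 112 CPM in 2D. PDK1 and BNIP3 were called higher in all 3 EPCaTs and BNIP3L in the 2% and 3% EPCaTs, while LONP1, a mitochondrial protease, and HIGD1A were called in none. Of all genes tested, 16.2%, 12.3% and 11.8% were called higher than 2D in the PF, 2% and 3% EPCaTs.

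**Figure D3:**
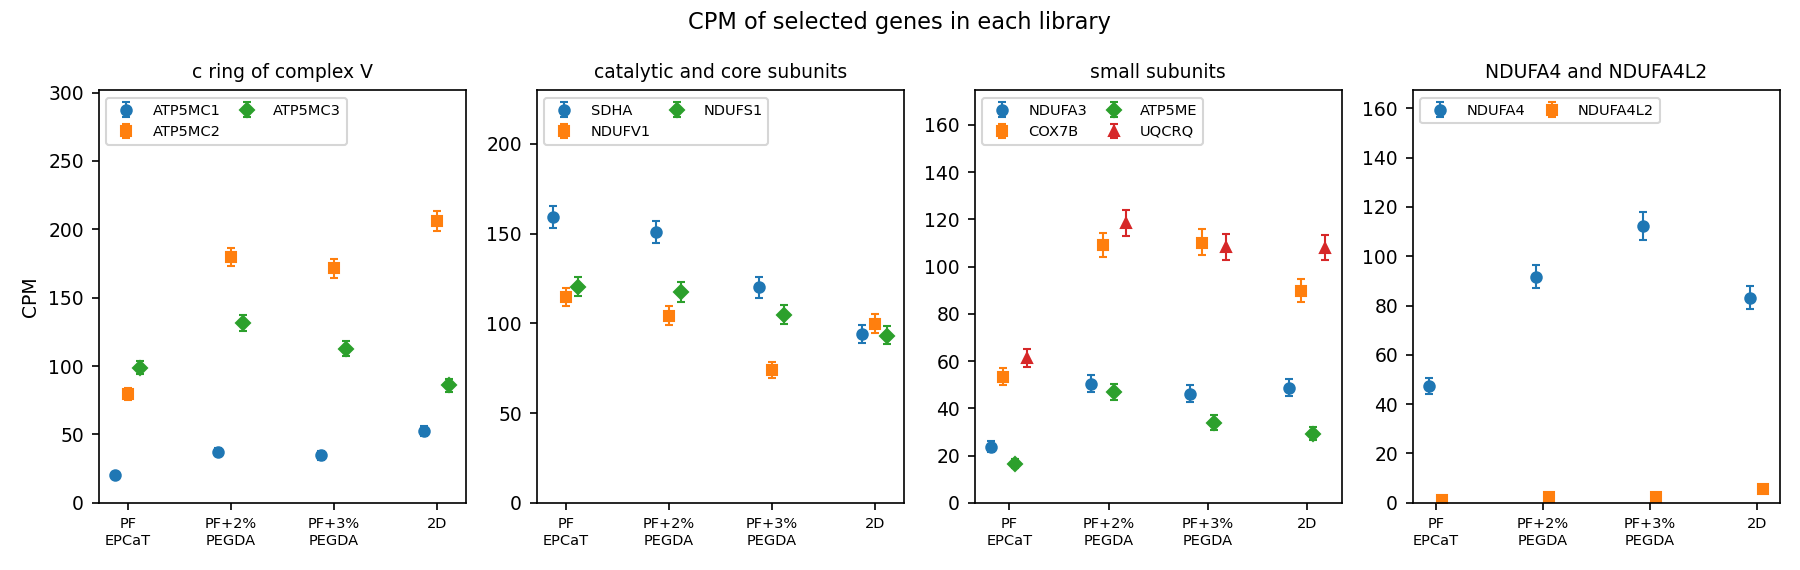
CPM of selected genes in the PF, 2%, 3% and 2D libraries, with exact Poisson 95% intervals that cover counting error only. The c ring panel shows ATP5MC2 lowest in the PF EPCaT while ATP5MC3 was lowest in 2D. SDHA is highest in the PF EPCaT and lowest in 2D, at 159 against 94.1 CPM, and the small subunits and NDUFA4 are lowest in the PF EPCaT.

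Complex II held the gene with the highest ratio of all 84 in the PF EPCaT against 2D. SDHA (chr5:218241-256700, + strand), the flavoprotein that oxidises succinate, measured 159, 151 and 120.0 CPM in the PF, 2% and 3% EPCaTs, against 94.1 CPM in 2D coculture. It was 1.69-fold higher in the PF EPCaT, with a log2 ratio of 0.76 (interval 0.67 to 0.85), and SDHA was the single gene of the 84 higher there at 1.5-fold. The 2 PEGDA gels lay between these libraries, the 3% EPCaT nearer to 2D. Other annotated genes, among them the pseudogene SDHAP3, hold 22.3% of its 50-base stretches. SDHB, the iron-sulfur subunit, measured 34.4, 45.6 and 44.2 CPM in the PF, 2% and 3% EPCaTs, against 45.8 CPM in 2D coculture. SDHC, a membrane anchor, measured 134, 158 and 151 CPM in the PF, 2% and 3% EPCaTs, against 135 CPM in 2D coculture. SDHD, the other anchor, measured 69.2, 82.05 and 89.9 CPM in the PF, 2% and 3% EPCaTs, against 109 CPM in 2D coculture. SDHB and SDHD were thus lowest in the PF EPCaT, whereas SDHC in the PF EPCaT was level with 2D. The 4 genes of 1 complex did not share a direction, and none was called in any pair.

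In complex III, 10 of 11 genes were lowest in the PF EPCaT. CYC1, which encodes the cytochrome that passes electrons to cytochrome c, measured 241, 298 and 242 CPM in the PF, 2% and 3% EPCaTs, against 411 CPM in 2D coculture, so that all 3 gels were below 2D and the 3% EPCaT was level with the PF EPCaT. UQCRFS1, the Rieske iron-sulfur protein, measured 59.9, 75.2 and 80.7 CPM in the PF, 2% and 3% EPCaTs, against 68.9 CPM in 2D coculture, a spread of less than 1.5-fold. UQCRC1, a core protein of the matrix side, measured 229.7, 257 and 255 CPM in the PF, 2% and 3% EPCaTs, against 258 CPM in 2D coculture, and had nearly equal levels outside the PF EPCaT. The 5 small subunit genes UQCRB, UQCRH, UQCRQ, UQCR10 and UQCR11 all lay below 2D in the PF EPCaT (median -0.42) and above the PF EPCaT in the 3% EPCaT (median 0.65). With the trend removed, 3 lay above 2D and 2 below in the PF EPCaT (median 0.02). All 5 genes then still lay above the PF EPCaT in the 3% EPCaT (median 0.24). Of these, UQCRQ measured 61.4, 118 and 108 CPM in the EPCaTs against 108 CPM in 2D, UQCR10 39.3, 75.4 and 62.2 CPM in the EPCaTs against 47.4 CPM in 2D and UQCRB 129.9, 216 and 194 CPM in the EPCaTs against 165 CPM in 2D. UQCRH, the hinge protein, was called higher in the 2% EPCaT than in the PF EPCaT, at 30.1, 61.5 and 44.6 CPM in the EPCaTs against 43.00 CPM in 2D. In the annotation 29.4% of its 50-base stretches also occur in the copy UQCRHL, at 47.8, 46.2 and 42.2 CPM in the EPCaTs against 41.01 CPM in 2D, and how reads that fit both were counted is not given in the sources used here. The 2 together gave 77.9, 108 and 86.8 CPM in the EPCaTs, against 84.01 CPM in 2D, and the ratio of the 2% EPCaT over the PF EPCaT was then 1.38-fold, below the rule. The call of UQCRH alone was also lost with total counts (0.96) and with the trend removed (0.54). The pseudogene UQCRBP1 had 9, 23, 39 and 34 counts in the PF, 2%, 3% and 2D libraries, which are few, and was called lower than 2D in the PF EPCaT and higher in both PEGDA gels than in the PF EPCaT.

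All 12 complex IV genes tested lay below 2D in the PF EPCaT, by a median log2 ratio of -0.83, and 10 of them by at least 1.5-fold. The 12 include COX6B2, which reached the filter through 2D alone, so that its place below 2D was set in advance. The 10 general genes alone all lay below 2D, with a median of -0.78 and 8 lower by at least 1.5-fold. With the trend removed, 9 of the 10 lay below 2D and the median was -0.36. COX6A1, a general isoform, measured 168, 258 and 219.7 CPM in the PF, 2% and 3% EPCaTs, against 334 CPM in 2D coculture, and 44.0% of its 50-base stretches also occur in other annotated genes. COX8A, the general isoform of the smallest subunit, measured 118, 175 and 205 CPM in the PF, 2% and 3% EPCaTs, against 234 CPM in 2D coculture. COX4I1, the general isoform of the subunit that mediates regulation by ATP, measured 251, 336 and 328 CPM in the PF, 2% and 3% EPCaTs, against 360.3 CPM in 2D coculture. These 3 had 2D as the highest library. COX7B (chrX:77899438-77907373, + strand), a small subunit needed for assembly of the complex, had PEGDA gels above 2D, at 53.4, 109 and 110.2 CPM in the EPCaTs against 89.6 CPM in 2D. COX7B was 2.06-fold higher in the 3% EPCaT and 2.04-fold higher in the 2% EPCaT than in the PF EPCaT. COX7C measured 159, 278 and 261 CPM in the EPCaTs against 267 CPM in 2D, COX5B 54.3, 81.9 and 66.6 CPM in the EPCaTs against 95.9 CPM in 2D, COX7A2 40.8, 58.04 and 57.9 CPM in the EPCaTs against 56.4 CPM in 2D and COX6B1 43.2, 75.03 and 57.3 CPM in the EPCaTs against 66.3 CPM in 2D. The remaining general members COX5A and COX6C were also lowest in the PF EPCaT. Isoforms known from testis were near the filter, COX6B2 with 14, 12, 9 and 41 counts and COX7B2 with 13, 21, 16 and 35 counts in the PF, 2%, 3% and 2D libraries. COX6B2 was called lower in all 3 EPCaTs, but reached the filter of 1 CPM through 2D alone, so that it could pass only by being higher there. COX7B2 was called lower in the PF and 3% EPCaTs, and in the 3% EPCaT no longer with total counts (-0.92) or a prior count of 2 (-0.94).

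In complex V, the catalytic subunits of the F1 head varied by less than 1.5-fold, and ATP5MC1 and ATP5MC2 of the c ring by more than 2-fold. ATP5F1B (chr12:56638175-56646068, - strand), the catalytic beta subunit, measured 452, 511 and 459 CPM in the PF, 2% and 3% EPCaTs, against 525 CPM in 2D coculture. ATP5F1A, the alpha subunit, measured 154, 182 and 198 CPM in the PF, 2% and 3% EPCaTs, against 183 CPM in 2D coculture. ATP5F1D, the delta subunit of the central stalk, was lowest in 2D, at 74.1, 109 and 111 CPM in the EPCaTs against 54.7 CPM in 2D, and the single gene of the 84 called higher than 2D, in the 3% EPCaT, with a log2 ratio of 1.03 (interval 0.90 to 1.15). In the 2% EPCaT it was 0.99 (interval 0.87 to 1.11), just under the rule. The peripheral stalk genes ATP5PB, ATP5PD, ATP5PF and ATP5PO had a median of -0.63 in the PF EPCaT against 2D. With the trend removed it was -0.17, with 2 of these genes above 2D and 2 below. ATP5PO, which joins the stalk to the head, measured 113, 202 and 220.0 CPM in the EPCaTs against 191 CPM in 2D, and shares 69.0% of its 50-base stretches with another annotated gene.

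The c ring turns with the flow of protons, and ATP5MC1, ATP5MC2 and ATP5MC3 encode the same mature protein. ATP5MC2 (chr12:53632726-53677408, - strand) measured 79.7, 179.9 and 172 CPM in the PF, 2% and 3% EPCaTs, against 206 CPM in 2D coculture. ATP5MC1 measured 20.02, 37.00 and 34.6 CPM in the PF, 2% and 3% EPCaTs, against 52.3 CPM in 2D coculture. ATP5MC3 measured 98.7, 131 and 113 CPM in the PF, 2% and 3% EPCaTs, against 85.9 CPM in 2D coculture. Both ATP5MC1 and ATP5MC2 were called lower than 2D in the PF EPCaT, with log2 ratios of -1.38 (interval -1.58 to -1.20) and -1.37 (interval -1.46 to -1.28), while ATP5MC3 was lowest in 2D. With the trend removed they were -0.81 and -1.07, so that the call of ATP5MC1 was lost. ATP5MC2 was also called higher than in the PF EPCaT in the 2% EPCaT (1.17) and the 3% EPCaT (1.11), and these calls were lost at 0.92 and 0.93 with the trend removed. As a share of the counts of the 3 genes, ATP5MC3 made up 49.7%, 37.7% and 35.3% in the PF, 2% and 3% EPCaTs and 24.9% in 2D, and these shares had exact binomial intervals that overlapped only between the 2% and 3% EPCaTs. The share of ATP5MC2 was 40.2%, 51.7% and 53.8% in the EPCaTs and 59.9% in 2D. These shares are not adjusted for transcript length, which was 506, 999 and 1543 bases for ATP5MC1, ATP5MC2 and ATP5MC3. Their intervals cover counting error only. ATP5ME (chr4:672436-674338, - strand), subunit e of the membrane part, shares 27.2% of its 50-base stretches with another annotated gene. It measured 16.6, 46.8 and 33.9 CPM in the PF, 2% and 3% EPCaTs, against 29.1 CPM in 2D coculture, and was 2.04-fold higher in the 3% EPCaT and 2.81-fold higher in the 2% EPCaT than in the PF EPCaT. ATP5MF, subunit f, did not share this, at 49.3, 66.1 and 42.2 CPM in the EPCaTs against 59.6 CPM in 2D. The read-through gene ATP5MF-PTCD1, nearly all of whose sequence lies in its neighbours, had 24, 16, 11 and 66 counts in the PF, 2%, 3% and 2D libraries. ATP5MGL, a copy of the gene of subunit g, had 0, 1, 3 and 15 counts, so that the PF EPCaT was 5.71-fold lower than 2D when its count is set to the floor of 3. That value leaves out the counting error of 2D, and the upper interval bound of the log2 ratio was -2.03. ATP5MF-PTCD1 and ATP5MGL were called lower in all 3 EPCaTs, on few counts, and ATP5MGL reached 1 CPM in 2D alone. ATP5MGL and COX6B2 thus make up 2 of the 13 genes called lower than 2D in the PF EPCaT. They are also 2 of the 3 called lower in the 2% EPCaT and 2 of the 4 in the 3% EPCaT.

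Transcript length moved with these differences. The members are short, with a median of 798 bases, against 2424 over all tested genes. Across the 14128 tested genes with a length, Spearman's rho between length and the log2 ratio was 0.21 in the PF EPCaT against 2D, -0.26 in the 3% EPCaT and -0.31 in the 2% EPCaT against the PF EPCaT, as a description across genes of the same libraries. Across the 84 members it was 0.32, -0.38 and -0.49. Other genes under 1000 bases had medians of -0.44 in the PF EPCaT against 2D and 0.30 in the 3% EPCaT against the PF EPCaT, and the 56 members under 1000 bases had -0.58 and 0.51. The 17 members of 1500 bases or more had -0.17 and 0.02. With the smooth trend of all genes in length and GC content removed, the median over members was -0.13 in the PF EPCaT against 2D and 0.09 in the 3% EPCaT against the PF EPCaT. By complex, the medians of the PF EPCaT against 2D were then 0.12 for complex I, 0.06 for complex II, -0.11 for complex III, -0.37 for complex IV and -0.12 for complex V, so that those of complexes I and II turned sign. In the 3% EPCaT against the PF EPCaT they were 0.04, -0.08, 0.24, 0.09 and 0.22 in that order. Of the 32 calls over all pairs, 18 remained with the trend removed. Most of the 18 were of ATP5MGL, ATP5MF-PTCD1, COX6B2, COX7B2 and UQCRBP1, which have few counts. Among members with more counts, NDUFB9, NDUFA11 and ATP5MC2 kept theirs in the PF EPCaT against 2D. ATP5F1D kept its call in the 3% EPCaT against 2D, and NDUFA4 in the 3% EPCaT against the PF EPCaT. In the PF EPCaT against 2D the calls of NDUFS8, NDUFA3, NDUFA6 (-0.66), NDUFB1 (-0.71) and ATP5MC1 were lost. Those of NDUFB9 (-1.07), NDUFA11 (-1.03) and ATP5MC2 remained, nearer to 0 than before, as did the calls of 5 genes with few counts. In the 2% EPCaT against the PF EPCaT all 6 calls were lost, with COX7B at 0.63, ATP5ME at 0.92 and UQCRBP1 at 0.78. In the 3% EPCaT against the PF EPCaT, COX7B (0.63), ATP5ME (0.59) and ATP5MC2 were lost, and NDUFA4 (1.16) and UQCRBP1 (1.74) remained. SDHA, which was not called, had a log2 ratio of 0.78 in the PF EPCaT against 2D. With total counts as the only scaling, the calls of NDUFA6 in the PF EPCaT against 2D (-0.85), of COX7B in the 2% (0.96) and 3% EPCaTs (0.95) and of ATP5ME in the 3% EPCaT (0.93) against the PF EPCaT were lost as well. The part of length and GC content in these differences was not tested.

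**Figure D4:**
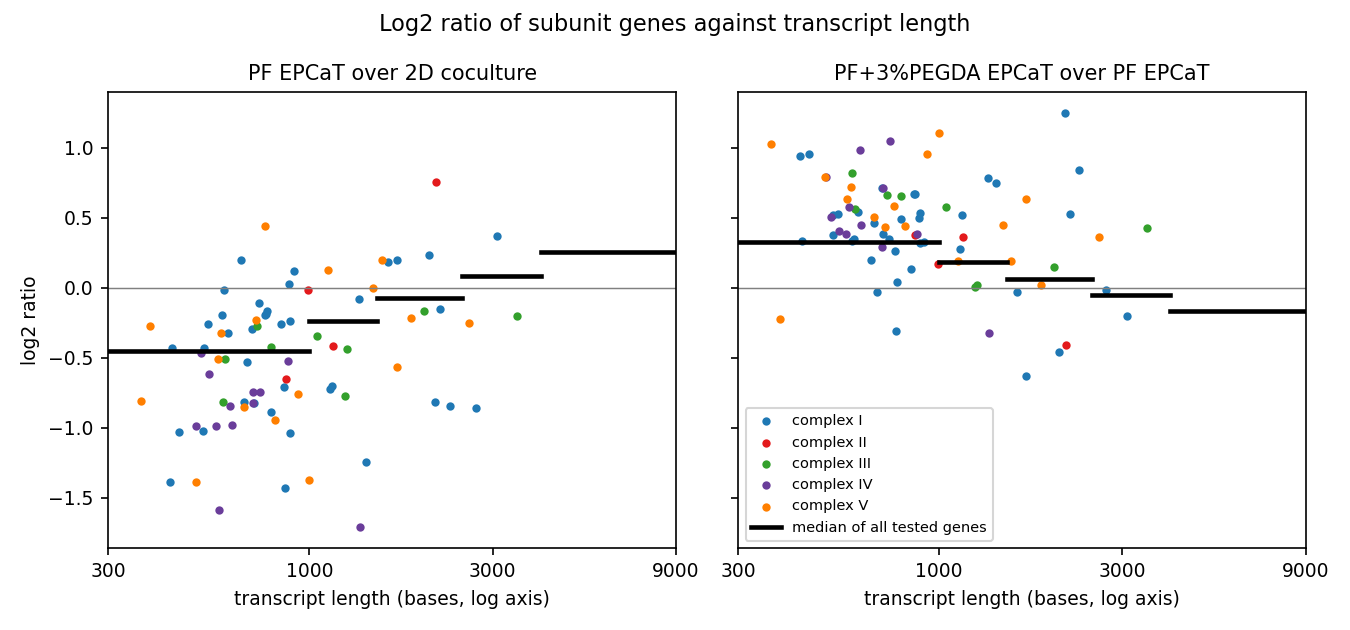
Log2 ratio of each member against its transcript length (log axis), in the PF EPCaT over 2D coculture (left) and in the 3% EPCaT over the PF EPCaT (right). Points are members coloured by complex, without gene copies and COX7A1, and black bars are medians of all tested genes in 5 length classes. Both members and bars go from low to high on the left and from high to low on the right as length grows.

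Assembly factors build the complexes without staying in them. Of 18 for complex I, the PF EPCaT had 0 called higher than 2D and 5 called lower, with a median of -0.35, where 16.2% of all genes tested were called higher and 12.3% lower. NDUFAF2, an assembly chaperone, measured 3.54, 7.59 and 4.75 CPM in the EPCaTs against 9.93 CPM in 2D, and was called lower in the PF and 3% EPCaTs. NDUFAF3, ECSIT and TMEM126A, of the same list, were called lower in the PF EPCaT alone, at 50.1, 83.1 and 86.3 CPM in the EPCaTs against 104 CPM in 2D for NDUFAF3. Of 27 for complex IV, 1 was higher and 3 were lower in the PF EPCaT, with a median of -0.48, so that the share called lower was near that background. SCO2, a copper chaperone, measured 12.4, 16.3 and 26.4 CPM in the PF, 2% and 3% EPCaTs, against 43.5 CPM in 2D coculture, and was called lower than 2D in the PF and 2% EPCaTs and higher in the 3% EPCaT than in the PF EPCaT. COX20, a chaperone of the COX2 protein, was called higher in all 3 EPCaTs, at 88.2, 95.2 and 105 CPM in the EPCaTs against 42.5 CPM in 2D. COA4 and CMC1 were called lower in the PF EPCaT. Of 4 for complex II only SDHAF2, which attaches flavin to SDHA, was called, lower in the PF EPCaT at 34.8, 63.3 and 64.8 CPM in the EPCaTs against 72.7 CPM in 2D. Of 6 for complex III, TTC19 was called higher in the PF and 3% EPCaTs, at 79.4, 70.7 and 83.5 CPM in the EPCaTs against 39.1 CPM in 2D, and UQCC3 lower in the same ones, at 23.7, 36.9 and 24.6 CPM in the EPCaTs against 49.8 CPM in 2D. Of 6 for complex V, 0 were called in any EPCaT against 2D.

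Lists of the pathway around the complexes are short, so that their counts of calls can be told little apart from the 16.2% called higher and 12.3% called lower over all genes in the PF EPCaT against 2D. Of 18 genes of electron carriers and ubiquinone synthesis, the PF EPCaT had 2 above 2D and 0 below by the rule, with a median of -0.10. ETFB, a subunit of the carrier that collects electrons from fatty acid oxidation, measured 83.9, 92.1 and 77.8 CPM in the EPCaTs against 40.1 CPM in 2D, and COQ7, of ubiquinone synthesis, 13.1, 11.3 and 9.29 CPM in the EPCaTs against 6.30 CPM in 2D. CYCS, the cytochrome c gene, was level in all 4 libraries, at 165, 186 and 186 CPM in the EPCaTs against 182 CPM in 2D. Of 14 citrate cycle genes IDH2, the mitochondrial isocitrate dehydrogenase, was called higher in all 3 EPCaTs, at 78.3, 94.1 and 91.5 CPM in the EPCaTs against 32.2 CPM in 2D, and no other. Of 16 regulators of mitochondrial biogenesis 15 passed, with medians of -0.60, -0.53 and -0.51 in the PF, 2% and 3% EPCaTs against 2D and -0.00 in the 3% EPCaT against the PF EPCaT. TWNK, the helicase of mitochondrial DNA, was called lower in all 3, at 18.2, 14.7 and 15.9 CPM in the EPCaTs against 43.00 CPM in 2D. PPRC1, a coactivator, was called lower in the 2% and 3% EPCaTs, at 37.6, 25.1 and 24.9 CPM in the EPCaTs against 70.4 CPM in 2D, and ESRRA, an estrogen-related receptor, in the 3% EPCaT, at 72.3, 57.2 and 55.8 CPM in the EPCaTs against 112 CPM in 2D. NRF1 itself measured 20.9, 20.7 and 17.7 CPM in the EPCaTs against 31.01 CPM in 2D. The median of these regulators was thus below 2D in every gel, whereas that of the 84 subunit genes was -0.49, 0.03 and -0.02 in the PF, 2% and 3% EPCaTs. With the trend in length and GC content removed, the regulators had medians of -0.60, -0.56 and -0.52. Those of the subunit genes were then -0.13, 0.09 and 0.07.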

How the data were processed

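RNA was measured in 4 libraries, 1 per group, made with a TruSeq RNA v2 kit from column-purified RNA, per the labels' protocols. The authors deposited 1 table of expected counts, estimated read counts per gene that are not scaled between libraries. Per the submitters' processing notes, reads were handled with FastQC, STAR and Partek on hg38. Versions, the gene annotation and the counting method are not given in the sources used here. Since 18.2% to 19.9% of values per library were fractional (tolerance 0.01), all were rounded. Whether counting used strand is not stated, and 19 of the 85 members had a value that was not whole.

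TMM factors (the trimmed mean method of edgeR 4.0.16, in R 4.3.3) over the whole table scaled the libraries. Later steps used Python 3.11.15, matplotlib 3.10.9, patsy 1.0.2, pandas 2.3.3, scipy 1.17.1 and numpy 2.4.6. A gene was kept if any library gave it 1 CPM, which held for 14856 of 17791. Log2 ratios used a prior count of 0.5 and exact Clopper-Pearson 95% intervals, and sums of counts exact Poisson intervals. Intervals and floors cover counting error only. A single count was worth 0.0599 to 0.0731 CPM. Lengths are geometric means over the basic coding transcripts of a gene in GENCODE 29, found for 14128 of the tested genes and all 85 members. The trend in length and GC content is a natural spline fitted over all these genes.

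Values in all libraries are given for members called in any pair and for the 3 most abundant in each complex. They are also given for the members with the highest and lowest ratio in each complex at a mean of at least 20 CPM, for isoforms, and for 7 core enzymatic subunits. From each pathway list up to 4 called genes are named, and further genes were named after their values were seen, among them NDUFB4, CYCS, LONP1, HIGD1A and NRF1. The values of 1 member are not reported here. The members, the lists and the rules were chosen with earlier results of these data known. The alternatives tried were scaling by size factors of DESeq2 1.42.0 or by total counts, other filters, prior counts and fold limits, removal of the trend, and leaving out members that share sequence or are long.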

Additional observations from a re-analysis of the deposited data

How the results depend on the processing

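No paired analysis was possible because each group has 1 library, and for the same reason no library could be left out. Of the 32 calls, 32 remained with DESeq2 size factors, 32 without the CPM filter, 31 with a prior count of 2, 21 of 29 with total counts as the only scaling, 18 with the length and GC trend removed, 18 of 18 at a filter of 5 CPM and 8 at 4-fold. All calls kept at 4-fold, and most of those kept with the trend removed, were of members with few counts. The CPM filter sets only which genes are tested and does not enter a ratio or its interval. That the calls still tested were kept without it and at 5 CPM was thus fixed in advance. For the 32 calls no setting turned a direction. At 1.5-fold, the counts of members higher and lower against 2D were 1 and 37 in the PF EPCaT, 6 and 7 in the 2% EPCaT and 2 and 9 in the 3% EPCaT. They were 33 higher in the 2% EPCaT and 25 higher and 1 lower in the 3% EPCaT against the PF EPCaT, and 1 and 1 in the 3% against the 2% EPCaT. At 4-fold, 2 were lower in the PF EPCaT and 0 higher in the 3% EPCaT against 2D, and 0 were higher in the 2% and 1 in the 3% EPCaT against the PF EPCaT. At 5 CPM, 8, 0 and 0 were lower than 2D in the PF, 2% and 3% EPCaTs, since the low-count members leave the test, and the complex V median in the PF EPCaT against 2D was -0.32. With the trend removed, 1 was higher and 8 were lower than 2D in the PF EPCaT, 1 was higher in the 2% EPCaT, and 0 were higher in the 2% and 2 in the 3% EPCaT against the PF EPCaT. The medians were then -0.13 over all members and 0.12, 0.063, -0.11, -0.37 and -0.12 for complexes I to V in the PF EPCaT against 2D. They were 0.14 in the 2% and 0.092 in the 3% EPCaT against the PF EPCaT, and in the 3% EPCaT 0.044, -0.084, 0.24, 0.094 and 0.22 by complex. Total counts as the only scaling raise every log2 ratio against 2D by 0.19 in the PF EPCaT and 0.12 in the 2% EPCaT, members and other genes alike. With total counts alone the PF EPCaT medians against 2D were -0.28 over all members and -0.12, -0.025, -0.23, -0.64 and -0.23 by complex, and the 2% EPCaT median was 0.16. There 1 member was higher than 2D in the 2% EPCaT, 2 were lower in the 3% EPCaT, and 3 were higher in the 3% EPCaT than in the PF EPCaT. Total counts moved the sums to 2213 and 2767 CPM for complex I in the PF and 2% EPCaTs and 2626 CPM in 2D, and to 422 CPM for complex II in the PF EPCaT and 358 CPM in 2D. Complex III was then 1017 CPM in the PF EPCaT and 1215 CPM in 2D, complex IV 1088 and 1623 CPM in the PF and 2% EPCaTs and 1639.6 CPM in 2D, and complex V 1666 and 2200.0 CPM in the PF and 2% EPCaTs and 1925 CPM in 2D. Without members that share sequence, the PF, 2% and 3% EPCaTs had sums of 1823, 2339 and 2271 CPM for complex I, with 2430.2 CPM in 2D, and 1452, 1967 and 1884 CPM for complex V, with 1866 CPM in 2D, with a complex V median of -0.32 in the PF EPCaT against 2D. Counting NDUFA4 with complex IV and leaving out members of 1500 bases or more were chosen after seeing the data. The first left the medians of complexes I and IV between the median lower and median upper interval bounds of their genes in the main setting. The second put the medians of complexes II and V in the PF EPCaT against 2D at -0.41 and -0.63. Removal of the trend was not run on summed CPM, since it acts on ratios. Other causes of these shifts were not tested. Depth limits the low-count members, where 3 counts of a library are the floor.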
